A study of Mus musculus with 12 samples.

Results

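Genes of the translation machinery, most of them cytoplasmic, were followed in the liver of fed and fasted mice. The set comprised every probe, control spots excluded, whose gene name in the scanner files began with Eif1 to Eif6, Eef1, Eef2, Etf1, Gspt or Pabp, or had the form of an aminoacyl-tRNA synthetase name (one letter followed by ars or ars2, or Eprs). This rule uses names and no measured value. It gave 45 of the 20280 probes analysed, for 36 gene names, of which 29 are current symbols and 7 older synonyms. By function they fell into 18 probes for initiation factors, 4 for regulators of initiation, 5 for elongation factors, 1 for a regulator of elongation, 5 for termination and poly(A)-binding proteins, and 12 for the synthetases of 9 gene names. By their descriptions Wars2, counted among the synthetases, is mitochondrial and the poly(A)-binding protein Pabpn1 nuclear. No Etf1 or Eprs probe was present.

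The animals were male FVB mice, 6 weeks of age, kept in metabolic cages and either fed or deprived of food for 12, 24 or 72 hours. Per the sample labels they were warmed with an infrared lamp from 24 hours of fasting. Warming and fasting thus cannot be told apart at 72 hours. Whether the 24-hour group was warmed at all before it was killed is not given. The paper mentions the lamp without a start time and without limiting it to certain groups. Each of the 3 arrays per group carried Cy3-labelled RNA pooled from 2 whole livers, next to a Cy5-labelled common reference pooled from 6 fed livers, and dyes were never exchanged. Values are therefore given as the log2 ratio of sample over reference, and differences between groups as log2 fold change. With the dyes never exchanged, 0 marks equal normalized signal in both channels and need not be the fed level of a probe. The fed mean of Eif3s5, for example, was 0.81. RNA came from whole tissue, so that fewer cells of a type and less RNA per cell cannot be told apart.

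Protein synthesis is one of the costliest activities of the hepatocyte. In initiation, eIF2 brings the initiator tRNA, eIF4E, eIF4G and the helicase eIF4A bind and unwind the capped end of the mRNA, and the large eIF3 complex holds the small ribosomal subunit. In elongation, eEF1A delivers the aminoacyl-tRNAs that the synthetases have charged, the eEF1B subunits recharge eEF1A with GTP, and eEF2 moves the ribosome on by one codon. Amino acid shortage is known to act on this machinery mainly through protein phosphorylation. It does so by the eIF2 kinase Gcn2 (Eif2ak4), by mTOR on the 4E-binding proteins and by the eEF2 kinase. Another eIF2 kinase, Perk (Eif2ak3), belongs to the unfolded protein response. None of these phosphorylations can be shown by an mRNA array.

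Promoter sequences from RefSeq (build GRCm38.p6, 250 bases before to 50 bases after each annotated start) were on hand for 27 of the 36 genes, with 39 promoters in all. They were searched on both strands for TGATGCAA and TGATGAAA, which are 2 forms of the core of the C/EBP-ATF response element that Atf4 binds, and for the E-box CACGTG, which reads the same on both strands. No 2 of these motifs overlapped in the windows printed here. TGATGCAA stood in 2 of the 39 promoters (5.13%), both of synthetase genes (Aars and Yars), against 0.895% of all 32851 promoters. TGATGAAA stood in 2 promoters, of Aars and Eef2k, against 1.02% of all. CACGTG stood in 9 promoters (23.1%) of 7 genes (Aars, Eef2, Eef2k, Eif3a, Eif3f, Eif4e and Eif5a), against 7.15% of all. These 9 include overlapping windows of alternative Eif5a starts that hold the same site, which is thus counted more than once. Such a match describes the letters of the window and is not a binding site. The windows of Aars and Yars are shown because they alone hold TGATGCAA, and those of Eef2 and Eef1a1 because the 2 genes gave the lowest p values of all members. Capitals mark the motifs. The first Aars window is chr8:111033687-111033746 (plus strand), the second chr8:111033832-111033861 (plus strand) and spans the start. The Yars window is chr4:129189893-129189922 (plus strand) and also spans the start, the Eef2 window is chr10:81176481-81176630 (plus strand), and the Eef1a1 window is chr9:78481725-78481874 (minus strand), the last 2 ending at the base before the start.
Aars, upstream: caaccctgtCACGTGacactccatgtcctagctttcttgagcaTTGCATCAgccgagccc
Aars, start: caaggcgtagcgggtcactTTTCATCAgag
Yars, start: cgacgagctcagcTGATGCAAcccgacggg
Eef2, upstream: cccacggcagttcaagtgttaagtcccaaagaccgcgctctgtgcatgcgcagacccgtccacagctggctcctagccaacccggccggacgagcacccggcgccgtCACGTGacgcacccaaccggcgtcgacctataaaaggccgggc
Eef1a1, upstream: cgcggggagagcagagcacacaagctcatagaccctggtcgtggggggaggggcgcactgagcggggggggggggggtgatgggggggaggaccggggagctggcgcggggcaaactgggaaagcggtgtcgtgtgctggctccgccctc

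A pair of arrays stood apart and bear on nearly every value of these genes. The median sample signal was 4.72 times its local background on replicate 2 of the 12-hour group and 3.50 times on replicate 3 of the 24-hour group, against 5.34 to 10.6 times on the other 10 arrays. On replicate 2 of the 12-hour group, 27 of the 42 members measured on all arrays of the group were lower than on both other arrays (64.3%, against 47.3% of all probes), with a median difference of -0.65 from the mean of the other 2 arrays against 0.01 over all probes. On replicate 3 of the 24-hour group this held for 33 of 45 members (73.3%, against 42.8% of all probes). Of the initiation factors, 16 of 18 probes lay below both other 24-hour arrays. The helicase gene Eif4a2 read 0.89 and 1.20 on the other 12-hour arrays and -2.13 on replicate 2. In contrast, Kars (lysyl-tRNA synthetase) read -0.21 and -0.19 there and 1.26 on replicate 2. By the day of feature extraction in the file headers, which need not be that of labelling or scanning, these 2 arrays were quantified together with replicate 1 of the fed group, while the other 12- and 24-hour arrays shared a day of their own and the 72-hour arrays shared a day with fed replicates 2 and 3. Arrays of normal signal could thus be set against fed within a day only at 72 hours. On fed replicates 2 and 3 the scanner software had marked 24.7% and 14.1% of all probes as outliers, and 4 and 10 of the members, which were treated as missing. Results are given with all 12 arrays and, where the text says so, without the 2 low-signal arrays.

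**Figure D1:**
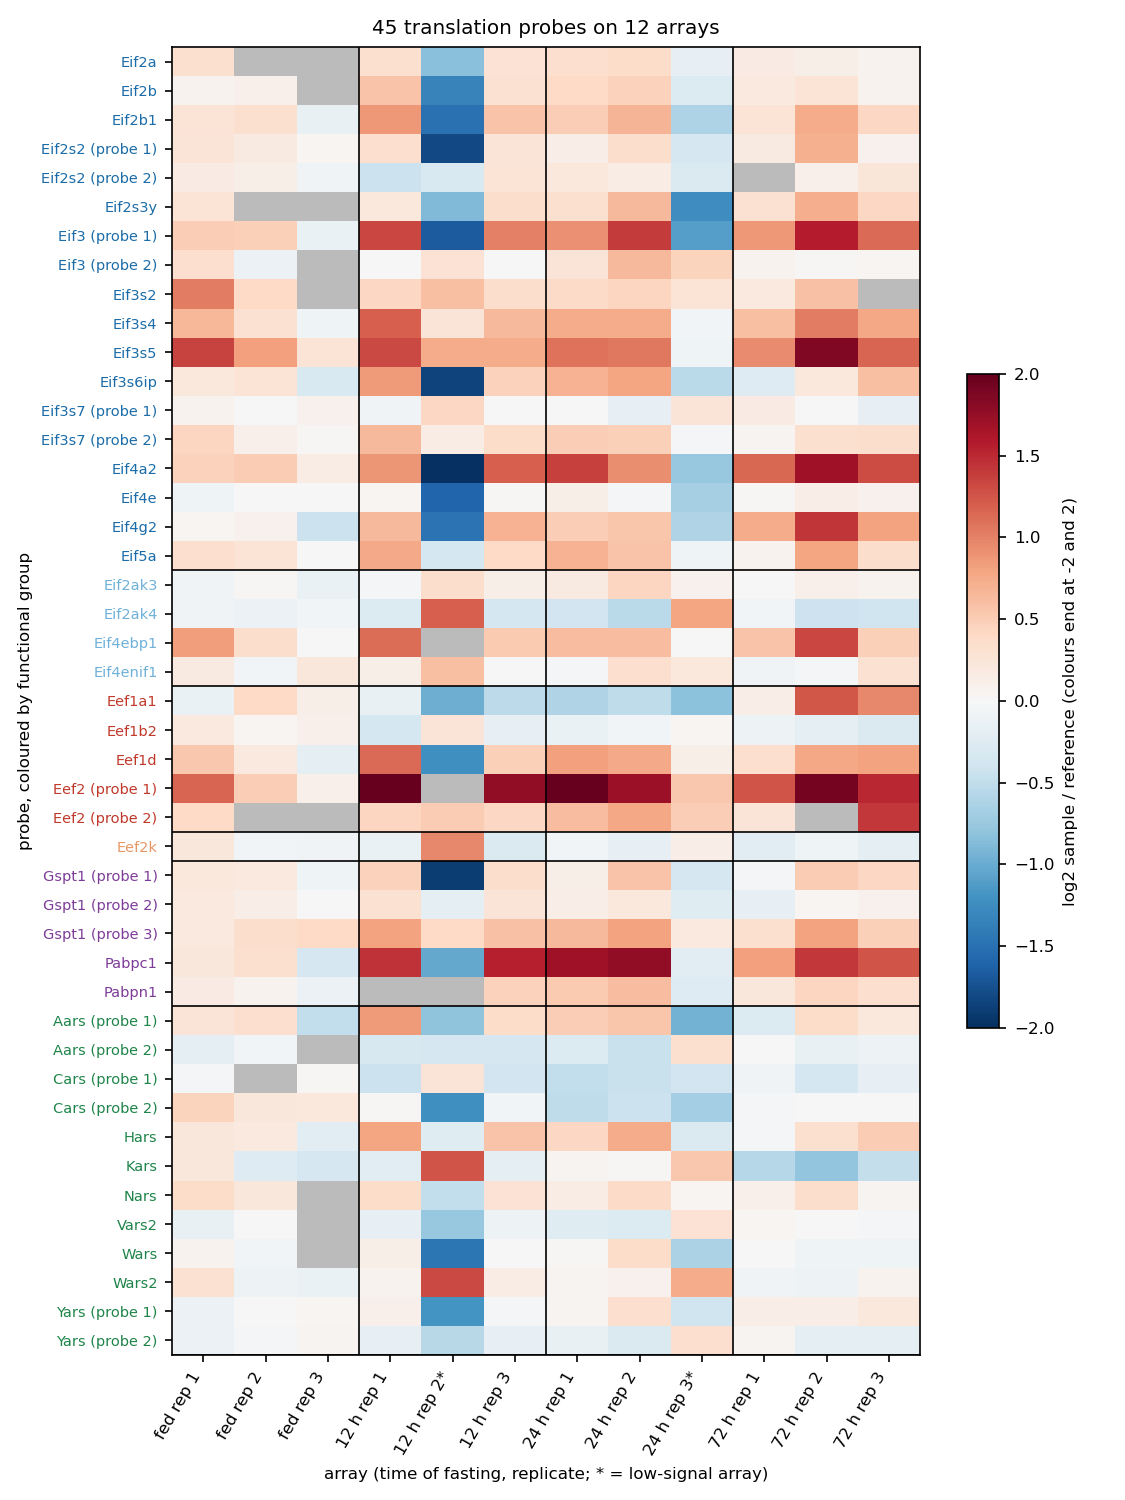
Log2 ratio of sample over reference for all 45 probes (vertical axis, coloured by functional group) on the 12 arrays (horizontal axis), with grey for missing values and asterisks on the 2 low-signal arrays. On those 2 arrays most initiation factor probes turn blue, including Eif4a2 at -2.13, while the 72-hour arrays show Eef2 (probe 1) between 1.26 and 1.91.

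With all 12 arrays, none of the 45 probes passed a Benjamini-Hochberg adjusted p of 0.05 in limma with at least a 1.4-fold change, at 12, 24 or 72 hours against fed. 0.00497% of 20110 probes passed at 12 hours, 0.00497% at 24 hours and 0.00996% of 20081 at 72 hours. At unadjusted p under 0.05 the members numbered 3, 2 and 1, where 3.92%, 3.04% and 1.55% of all probes did. The p and fold limits of the study's methods (unadjusted p under 0.01 and 1.4-fold) were applied here to the limma fit. The study's further demand for concordant calls across arrays and ANOVA comparisons was not applied, so that these counts are not its own calls. At these limits 1 member passed at 12 hours (Eef2, which kept this pass in 4 of the 12 fits that leave out 1 array), where 0.656% of all probes did, and 0 at 24 and 72 hours, where 0.641% and 0.428% did. Values of the 3 arrays of a group are next described by role.

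Among the elongation factors, Eef1a1 read below fed and Eef2 above it early in fasting, neither past the adjusted limit with all arrays. Eef1a1, which carries aminoacyl-tRNA to the ribosome, read -0.13, 0.39 and 0.12 in the fed group, -0.16, -0.98 and -0.52 at 12 hours, -0.60, -0.51 and -0.83 at 24 hours, and 0.13, 1.24 and 0.96 at 72 hours. All 12- and 24-hour arrays thus lay below all fed arrays, and all 72-hour arrays above all 24-hour arrays. The spot that read 1.24 was saturated in the sample channel, the single saturated member spot of the data set, so that its value is a lower bound. Here and below, ± gives the SE of the limma fit, in which all groups share 1 spread per probe. Groups hold fewer than 3 arrays where values are missing or arrays left out. The Eef1a1 differences from fed were -0.68 ± 0.30, -0.77 ± 0.30 and 0.65 ± 0.30 at 12, 24 and 72 hours (3 arrays per group). In limma their unadjusted p was 0.0427, 0.0243 and 0.0521 and their adjusted p 0.956, 1 and 1. The early differences depended on the scaling: they were -0.18 and -0.16 at 12 and 24 hours with loess within arrays and -0.38 and -0.35 with the ratio of the scanner software. From 24 to 72 hours Eef1a1 was 2.67-fold higher (log2 1.42 ± 0.30, unadjusted p = 0.000581, adjusted p = 1 in limma), the single member past the study's limits in that comparison, where 0.503% of all probes were and no probe passed the adjusted limit (0%). Without the low-signal arrays the step was 1.33 ± 0.28 (limma adjusted p = 0.0487, in a fit that called 1.3% of all probes), leaving out any single array gave 1.19 (without the array of the saturated spot) to 1.74, and loess and the scanner ratio gave 0.88 ± 0.46 and 1.10 ± 0.54 (limma unadjusted p = 0.0839 and 0.0671), past no limit. No day of quantification held arrays of both groups, so that day and time cannot be told apart for this step.

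Eef2, the translocation factor, had 2 probes (probes of 1 gene are numbered here in the order of the array). Probe 1, which the study itself had listed on these samples, read 1.17, 0.49 and 0.10 in the fed group, 2.40 and 1.78 on the 2 measured 12-hour arrays, 2.02, 1.72 and 0.54 at 24 hours, and 1.26, 1.91 and 1.51 at 72 hours. The 72-hour arrays all lay above the fed arrays, while at 24 hours the low-signal array fell within the fed range. Against fed it was 2.83-fold higher at 12 hours (log2 1.50 ± 0.45 with 2 arrays against 3, unadjusted p = 0.00817, adjusted p = 0.956 in limma), with the low-signal array missing as an outlier spot. With loess the difference was 1.51 ± 0.54 (limma unadjusted p = 0.0196), and Cars probe 2 passed the limits of the study's methods in its place. The differences at 24 and 72 hours were 0.84 ± 0.41 and 0.98 ± 0.41 (limma adjusted p = 1 for both). Without the low-signal arrays the probe passed the adjusted limit at 12 hours (1.50 ± 0.30, adjusted p = 0.0327) and at 24 hours (1.28 ± 0.30, adjusted p = 0.0265, limma), but not at 72 hours (0.98 ± 0.27, adjusted p = 0.127). Probe 2 of the same gene had 1 fed value, 0.41. It read 0.43, 0.51 and 0.41 at 12 hours, 0.61, 0.77 and 0.49 at 24 hours, and 0.26 and 1.42 at 72 hours, so that its differences of 0.05, 0.22 and 0.43 rest on a single fed array and passed no limit.

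The exchange factor subunits passed no limit with all arrays. Eef1d, also listed by the study, read 0.54, 0.19 and -0.17 when fed, 1.14, -1.23 and 0.48 at 12 hours, 0.82, 0.76 and 0.11 at 24 hours, and 0.34, 0.77 and 0.80 at 72 hours, with overlap between all groups. Its difference from fed was -0.06 ± 0.49 at 12 hours with all arrays and 0.62 ± 0.24 without the low-signal pair (limma adjusted p = 0.156), so that 1 array set its sign. Eef1b2 lay slightly below fed on every 72-hour array (-0.30 ± 0.17, limma adjusted p = 1). Eef2k, the kinase that inactivates eEF2, differed from fed by 0.14, -0.06 and -0.20 at the 3 times (SE 0.28). The median over the 5 elongation factor probes was -0.06, 0.22 and 0.45, beside -0.01, 0.00 and -0.01 over all probes.

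**Figure D2:**
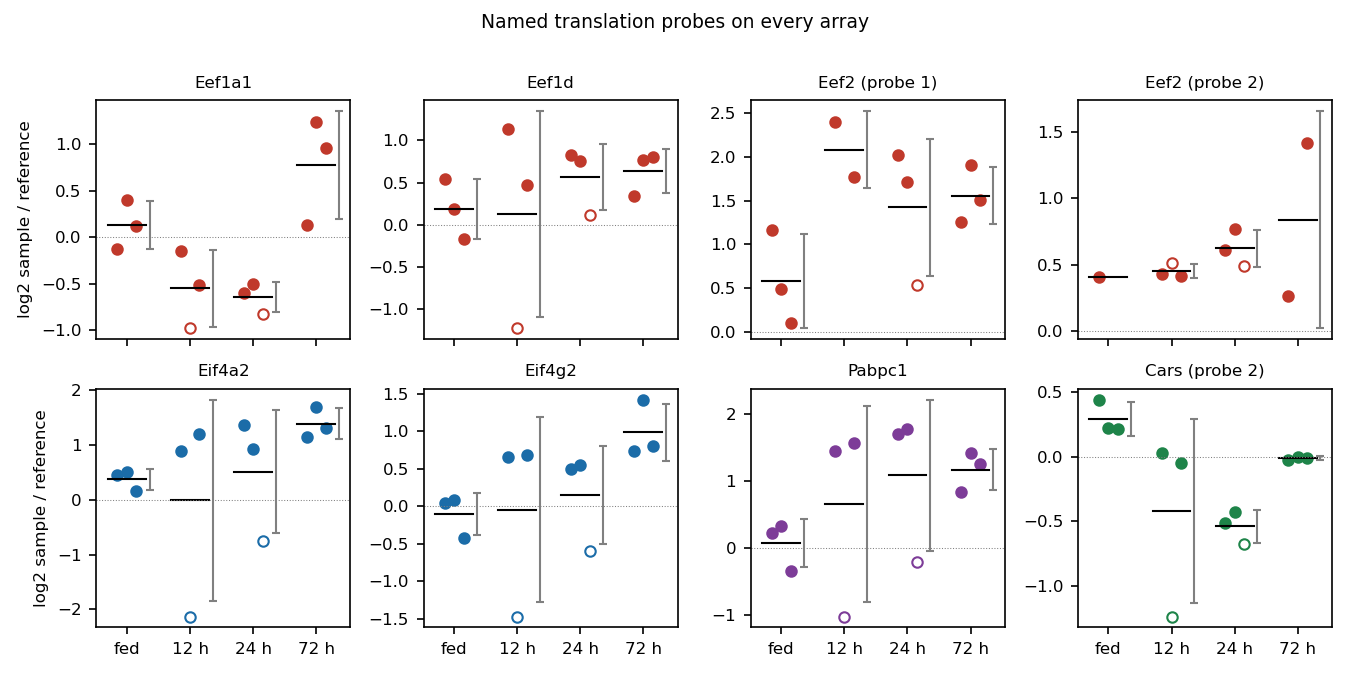
Log2 ratio of sample over reference (vertical axis) of 8 probes on each array of the fed and the 12, 24 and 72 h fasted groups (horizontal axis), with open circles for the 2 low-signal arrays, horizontal lines for group means and grey bars for the SD where more than 1 array was measured. The group mean of Eef1a1 is lowest at 24 hours (arrays from -0.83 to -0.51), whereas Eif4a2, Eif4g2 and Pabpc1 lie above all fed arrays at 72 hours, and the vertical scales differ between panels.

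Initiation factors were described first at 72 hours, the time without a low-signal array. Of 18 probes, 14 were higher than fed at 72 hours, where 46.6% of all probes were, 5 of them by 1.4-fold or more and 0 lower by as much, where 3.68% of all probes were higher and 2.25% lower by that size. Their median was 0.14, against -0.20 at 12 hours and 0.08 at 24 hours, and without the low-signal arrays it was 0.27 at 12 hours and 0.32 at 24 hours. The early medians thus changed by the removal of those arrays more than they differed from 0.

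Eif4a2, an isoform of the cap-unwinding helicase listed by the study, read 0.46, 0.51 and 0.15 when fed and 1.15, 1.70 and 1.31 at 72 hours, without overlap (2.02-fold, log2 1.01 ± 0.77, limma adjusted p = 1). At 12 hours it read 0.89, -2.13 and 1.20 and at 24 hours 1.37, 0.93 and -0.76, so that all arrays except the low-signal ones were above fed. Without these arrays the differences were 0.67 ± 0.19 (limma adjusted p = 0.0836), 0.77 ± 0.19 (adjusted p = 0.0333) and 1.01 ± 0.17 (adjusted p = 0.0311) at 12, 24 and 72 hours. Eif4g2, an eIF4G relative that does not bind eIF4E, showed the same layout: 0.04, 0.08 and -0.43 when fed, 0.65, -1.47 and 0.69 at 12 hours, 0.50, 0.55 and -0.60 at 24 hours, and 0.73, 1.42 and 0.80 at 72 hours. Its 72-hour difference was 2.13-fold (log2 1.09 ± 0.53, limma adjusted p = 1) with all arrays, and 1.09 ± 0.19 (adjusted p = 0.0311) without the low-signal pair.

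The eIF3 complex was represented by 8 probes. The Eif3 probe 1 (the large subunit, now Eif3a) read 0.49, 0.48 and -0.13 when fed and 0.87, 1.56 and 1.14 at 72 hours, a difference of 0.91 ± 0.77 (limma adjusted p = 1). Probe 2 of the same gene name gave 0.34 and -0.12 when fed and 0.07, 0.02 and 0.05 at 72 hours, a difference of -0.06 ± 0.20. Since the probes disagree and the files give no probe sequence, the level of Eif3a is uncertain. Eif3s5 (now Eif3f) read 1.36, 0.81 and 0.27 when fed and 0.94, 1.85 and 1.17 at 72 hours. It lay above the reference on every array, the fed ones included, except the low-signal one at 24 hours (-0.08). Its groups overlapped. Eif4e, the cap-binding protein, read -0.08, 0.01 and 0.01 when fed and 0.03, 0.13 and 0.09 at 72 hours, and its 72-hour difference was 0.10, without a pass. On the low-signal arrays it read -1.59 and -0.66, and on the other early arrays between -0.04 and 0.11, so that its 12-hour difference of -0.49 ± 0.38 (limma adjusted p = 0.956) rests on 1 array. Eif5a, grouped here by its symbol although its protein is known to act mainly in elongation, differed by 0.07, 0.19 and 0.20.

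With all arrays none of the 4 regulators of initiation passed a limit, and their differences from fed were under 1.4-fold at 12, 24 and 72 hours. Eif2ak3, the kinase of the unfolded protein response, read -0.07, 0.03 and -0.14 when fed and 0.17, 0.44 and 0.09 at 24 hours, without overlap (0.29 ± 0.15, limma unadjusted p = 0.0814). Counting only probes measured on all fed and 24-hour arrays, Eif2ak3 was the single member above all fed arrays at 24 hours, where 4.27% of all probes were. Eif4ebp1, which sequesters eIF4E, read 0.84, 0.36 and 0.01 when fed and 0.57, 1.34 and 0.48 at 72 hours, with overlapping groups and a difference of 0.39 ± 0.31 (limma adjusted p = 1), which was 0.61 ± 0.25 within the first day (limma unadjusted p = 0.044). At 12 hours it differed by 0.42 ± 0.35, and by 0.54 with loess and 0.61 with the scanner ratio, both past 1.4-fold. Eif2ak4 was high on the low-signal arrays only, at 1.19 and 0.79, and between -0.54 and -0.06 on the other 10.

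Among the poly(A)-binding proteins, Pabpc1, the cytoplasmic form that bridges the tail to eIF4G, had one of the largest differences of the set at 72 hours. It read 0.22, 0.32 and -0.34 when fed, 1.44, -1.02 and 1.56 at 12 hours, 1.70, 1.77 and -0.22 at 24 hours, and 0.83, 1.42 and 1.25 at 72 hours. Every array of normal signal from fasted liver was above every fed array. The fold over fed was 1.51, 2.02 and 2.14 with all arrays (limma adjusted p at least 0.956) and 2.70, 3.18 and 2.14 without the low-signal pair (limma adjusted p = 0.0132, 0.00398 and 0.0311). The nuclear form Pabpn1 was also above fed on all 72-hour arrays (0.29 ± 0.24, limma adjusted p = 1), and at 24 hours it passed without the low-signal arrays (0.53 ± 0.12, adjusted p = 0.0271). The 3 probes of Gspt1, the release factor eRF3a, gave 0.28, 0.02 and -0.47 at 12 hours, the last through the low-signal array (-1.91), and without the low-signal arrays they gave 0.18 to 0.38. The first of them, probe 3, lay above all fed arrays at 12 hours (0.80, 0.40 and 0.59 against 0.20, 0.35 and 0.40), though by only 1.21-fold (limma unadjusted p = 0.191).

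The aminoacyl-tRNA synthetases, which load each tRNA with its amino acid, did not share a direction. Of 12 probes, 4 were higher and 8 lower than fed at 12 hours, 5 and 7 at 24 hours, and 5 and 7 at 72 hours, with medians of -0.23, 0.00 and -0.07. At 72 hours no synthetase probe differed from fed by 1.4-fold in either direction. Among the synthetase genes with 2 probes, the one with both below fed at all 3 times was Cars, cysteinyl-tRNA synthetase. Probe 2 read 0.44, 0.22 and 0.21 when fed, 0.03, -1.23 and -0.05 at 12 hours, -0.51, -0.43 and -0.68 at 24 hours, and -0.03, 0.00 and -0.01 at 72 hours, so that each fasted group lay wholly below the fed group. It was 1.78-fold lower than fed at 24 hours (log2 -0.83 ± 0.28, limma unadjusted p = 0.0136, adjusted p = 1), and without the low-signal arrays -0.76 ± 0.11 (adjusted p = 0.00577). Probe 1 of Cars differed by -0.44 ± 0.22 at 24 hours and, without the low-signal arrays, by -0.46 ± 0.12 (limma adjusted p = 0.0457), just under the 1.4-fold limit. Between 24 and 72 hours both probes were higher on every 72-hour array, by 0.53 ± 0.28 and 0.25 ± 0.20 (limma unadjusted p = 0.0893 and 0.235).

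Among the other synthetases, Hars (histidyl-tRNA synthetase) read 0.22, 0.20 and -0.22 when fed. At 12 hours it read 0.79, -0.25 and 0.56, and at 24 hours 0.42, 0.74 and -0.29. Its early arrays of normal signal thus lay above all fed arrays. Without the low-signal arrays its 12-hour difference was 0.61 (limma unadjusted p = 0.0074). This passed the limits of the study's methods, where 7.11% of all probes did, but not the adjusted limit. With array weights it passed the adjusted limit (0.56), where 9.53% did. Kars read 0.22, -0.26 and -0.34 when fed, -0.21, 1.26 and -0.19 at 12 hours, 0.06, 0.02 and 0.55 at 24 hours, and -0.57, -0.78 and -0.47 at 72 hours, below all other groups (72 against 24 hours -0.82 ± 0.36, limma unadjusted p = 0.0425, adjusted p = 1). Aars, alanyl-tRNA synthetase, whose promoter held all 3 motifs, had probes that disagreed: at 24 hours without the low-signal arrays they differed from fed by 0.49 and -0.25. The Yars probes did so too, at 0.22 and -0.19. The file's name Vars2 is both a current symbol and an older synonym of Vars, so that the identity of that probe is uncertain (0.08 at 72 hours).

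**Figure D3:**
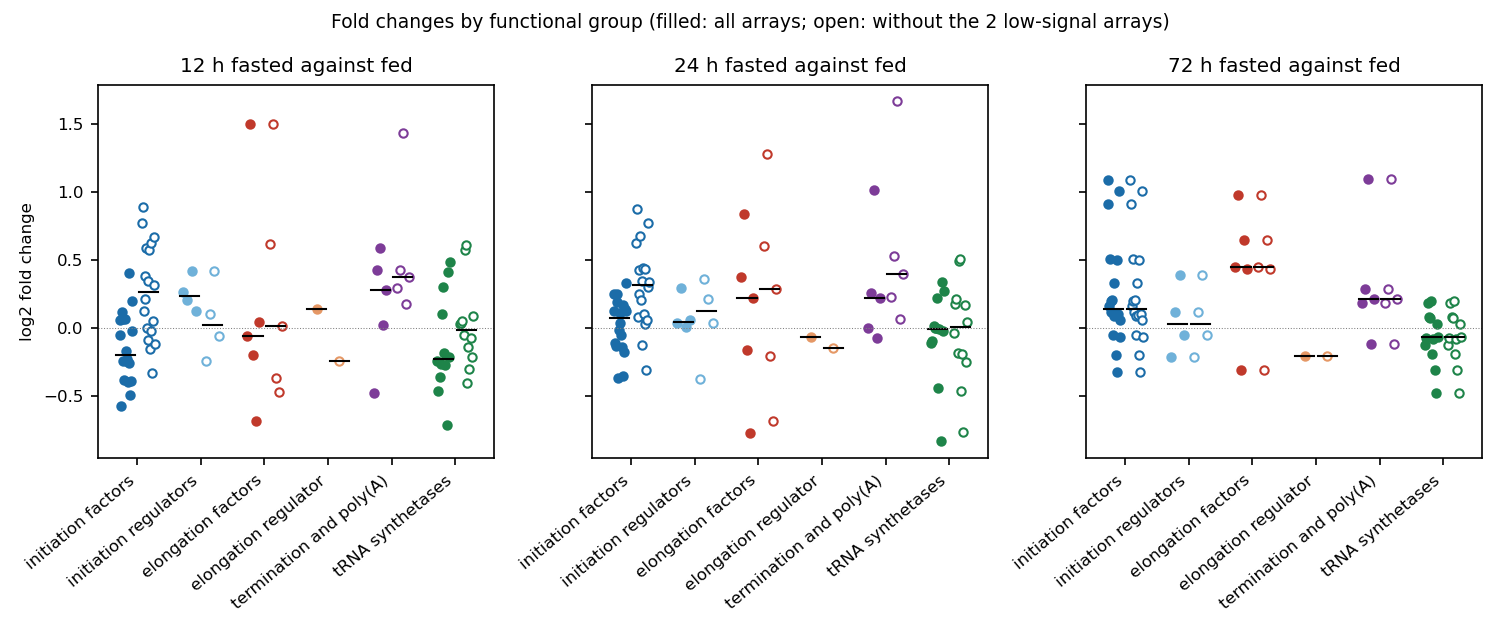
Log2 fold change against fed (vertical axis) of each probe by functional group (horizontal axis) at 12, 24 and 72 hours, with filled circles for all arrays, open circles for the fit without the 2 low-signal arrays and black lines for medians. The median of the 18 initiation factor probes moves from -0.20 to 0.27 at 12 hours with the removal of those arrays, whereas that of the synthetases stays between -0.23 and 0.01 at all times.

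In the fit without the low-signal arrays 2 members passed the adjusted limit at 12 hours (Eef2 and Pabpc1), where 2.59% of all probes did. At 24 hours 6 passed, 5 higher (Eef2, Eif3 probe 1, Eif4a2, Pabpc1 and Pabpn1) and 1 lower (Cars), where 8.81% of all probes did. At 72 hours 3 passed, all higher (Eif4a2, Eif4g2 and Pabpc1), where 0.836% did. By functional group, the 18 initiation factors gave 0, 2 and 2 calls, the 5 elongation factors 1, 1 and 0, the 5 termination and poly(A) probes 1, 2 and 1, and the 12 synthetases 0, 1 and 0. The set as a whole was not tested.

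At 72 hours the comparison could be made within 1 day of quantification, against fed replicates 2 and 3. Of the 42 members with values, 7 then passed unadjusted p under 0.01 with 1.4-fold, where 3.33% of all probes did, and 0 the adjusted limit, which 0.0469% passed. Eef2 (probe 1) differed by 1.27 ± 0.20, Eif4g2 by 1.16 ± 0.23, Pabpc1 by 1.17 ± 0.23 and Eif4a2 by 1.05 ± 0.18. Eif3 (probe 1) differed by 1.02 ± 0.24, Eif3s4 (now Eif3g) by 0.68 ± 0.16 and Eef1d by 0.63 ± 0.17. Limma adjusted p ran from 0.113 to 0.236. Fed replicate 3 was the lowest fed array for each of these 7 probes, so that the differences lean on it. Its median over all members was -0.01, against 0.22 and 0.13 on fed replicates 1 and 2. On the day of the low-signal arrays, 1 array of each early group could be set against fed replicate 1, without error: Eef1a1 differed by -0.85 at 12 hours and -0.70 at 24 hours, Cars probe 2 by -1.67 and -1.12, and Pabpc1 by -1.25 and -0.44, while Eef2 (probe 1) differed by -0.63 at 24 hours. With the day as a block in limma, 15, 6 and 0 members passed the adjusted limit at 12, 24 and 72 hours, where 22.4%, 11.5% and 0.0199% of all probes did, and the early differences in that fit rest on these 3 arrays. Pabpc1 in that fit differed at 72 hours by 1.17 ± 0.24 (limma adjusted p = 0.216).

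Absence of overlap was counted only for probes measured on all arrays of both groups. Over all 12 arrays, 12 members did not overlap with fed at 72 hours, 8 higher and 4 lower, where 11.4% of all probes did not overlap. At 12 and 24 hours these were 4 and 3 members, where 7.64% and 7.33% of all probes did not overlap. Between 12 and 24 hours 0 members passed the adjusted limit in limma, with all arrays or without the low-signal pair, and so did 0% of all probes in both fits. With all arrays 0 members passed the limits of the study's methods, unadjusted p under 0.05 or the absence of overlap, where 0.0447%, 0.945% and 3.1% of all probes did. Between 24 and 72 hours 3 members reached unadjusted p under 0.05 (Eef1a1, Kars and Eif3 probe 2) and 6 did not overlap, where 3.42% and 13% of all probes did.

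**Figure D4:**
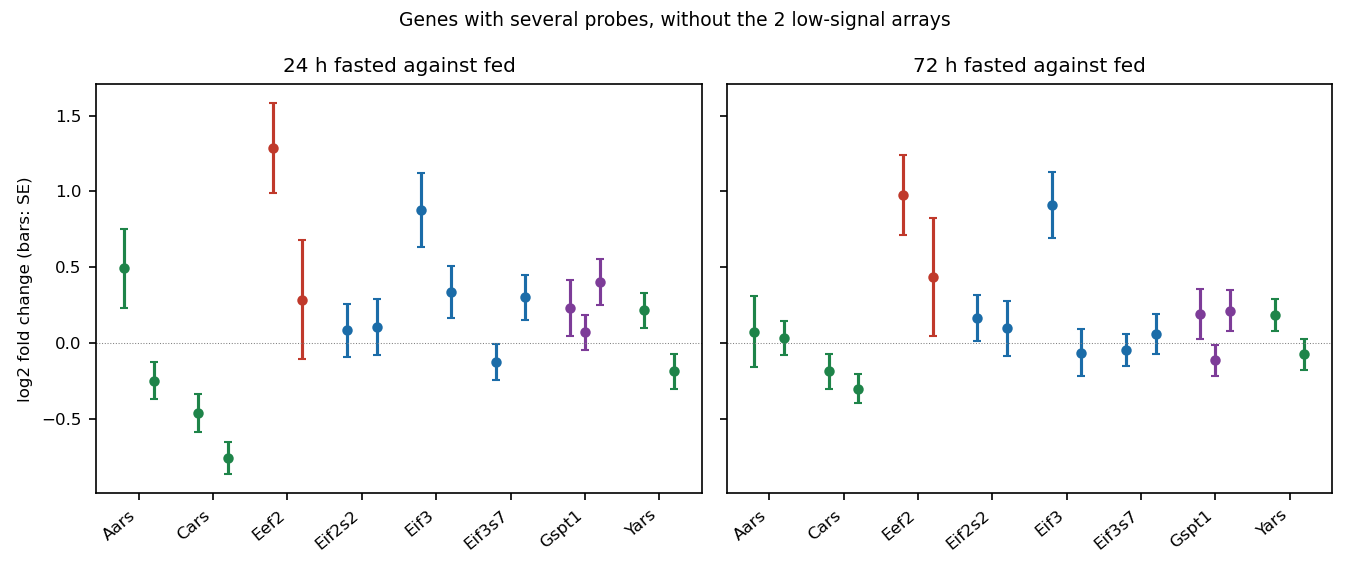
Log2 fold change against fed (vertical axis, bars SE) of each probe of the 8 gene names with more than 1 probe (horizontal axis), at 24 and 72 hours without the 2 low-signal arrays. Both Cars probes lie below 0 at both times. The probes of Eef2 differ in size, and those of Aars, Yars and Eif3s7 differ in sign at 24 hours. Those of Eif3 differ in size at 24 hours and, like those of Yars, Eif3s7 and Gspt1, in sign at 72 hours.

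Pathways that control these factors were described from lists of known members. Of the mTOR pathway, 13 of 17 genes had 14 probes, with 0 past the adjusted limit with all arrays and medians of 0.05, 0.07 and -0.05. Ddit4, an inhibitor of mTORC1, was the single probe past the study's limits at 72 hours (log2 3.35, limma unadjusted p = 0.000893, adjusted p = 0.754), where 0.428% of all probes were. Without the low-signal arrays Ddit4 passed at 72 hours (limma adjusted p = 0.0237) and at 24 hours (2.21, adjusted p = 0.0434). The fit without those arrays called 2.59%, 8.81% and 0.836% of all probes at 12, 24 and 72 hours, beside which the passes named here are to be read. In that fit Pdpk1, a kinase upstream of Akt and S6 kinase, was higher at 12 and 24 hours (1.12 and 1.07, limma adjusted p = 0.027 and 0.0152), and Rictor, a subunit of mTORC2, was lower (-0.59 and -0.67, adjusted p = 0.0453 and 0.0179). Of the Atf4 response, 11 of 22 genes had 13 probes, with 0 past the adjusted limit with all arrays and medians of 0.14, 0.05 and 0.09. Without the low-signal arrays Cebpb passed at 24 hours (1.14, limma adjusted p = 0.0215), while Asns, a classical Atf4 target, differed by -0.58 (adjusted p = 0.0684). Of other and mitochondrial translation, 7 of 19 genes had a probe, with medians of 0.02, -0.01 and 0.02 and 0 calls with all arrays, and without the low-signal arrays Aimp1, a scaffold of the synthetase complex, passed at 24 hours (0.67, limma adjusted p = 0.0236).

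Markers of cell type were checked beside these values. The hepatocyte list had probes for 4 of 14 genes (Apoa1, Ttr, Tdo2 and Ass1), all well above background on all arrays. Its medians were 0.40, -0.18 and 0.48, with 0 adjusted calls with all arrays. Without the low-signal arrays Ttr passed at 72 hours (-1.35, limma adjusted p = 0.0418), where 0.836% of all probes did. The study reported Ass1 itself as upregulated at every time of fasting, so that the hepatocyte median does not read hepatocyte content alone. The macrophage and leukocyte list had 5 probes for 4 of 7 genes, and its median differed from fed by -0.71, -0.31 and -0.36. At 12 hours this rests on the low-signal array (-1.44, against 0.09 and -0.10 on the others), and without the low-signal arrays it was -0.16 at 12 hours. Endothelial and stellate genes (2 probes) differed by -0.31, -0.12 and 0.07 (0.14 and 0.00 at 12 and 24 hours without the low-signal arrays), the erythroid probe (Hba-a1) by -0.62, -0.51 and -0.38, and the acinar probe (Cpa1) by 0.71, -0.06 and 0.13 (-0.83, -0.77 and -0.38, and 1.20, -0.25 and 0.13, without the low-signal arrays), none past the adjusted limit in either fit. The part of these cell types in the values of the translation genes was not tested.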

How the data were processed

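The authors deposited Feature Extraction output with unnormalized intensity values per spot, of which the median brightness and its local background in both channels were used. The deposited log10 ratio, background-subtracted and dye-normalized by that software per the file headers, served as an alternative. Of 21446 spots per array, 1075 control and 91 retired spots were left out. Signals were background-corrected (normexp, offset 50) and quantile-normalized over 24 channels, and outlier-flagged spots were set to missing. The 4 groups were fitted together with limma 3.58.1 in R 4.3.3 (8 residual degrees of freedom), p-values were adjusted over all probes tested, and a call needed an adjusted p under 0.05 and 1.4-fold. The limma fit stands in for the authors' split-factor ANOVA. Replicates are pools of different animals. The number of arrays limits the precision. Named were members past a limit, the 2 lowest p values of each functional group, probes listed by the study, and other probes of those genes. In contrast, Kars, Hars, Eif4e, Eif5a, Eif3s5, Eef1b2, Eif2ak4, Pabpn1, Aars and Yars were chosen after their values were seen. The members and lists were chosen with earlier results of these data known. The fit was tested on simulated data.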

Additional observations from a re-analysis of the deposited data

Results flagged for a closer look

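Eef1a1 differed between time points. Its level at 72 hours exceeded that at 24 hours by 1.42 on the log2 scale (n = 3 against 3, limma unadjusted p = 0.000581, adjusted p = 1). All 24-hour arrays lay below all fed arrays. The 72-hour arrays overlapped the fed arrays, with a mean difference of 0.65 ± 0.30 (limma unadjusted p = 0.0521). The 24- and 72-hour groups shared no day of quantification, so that day and time cannot be told apart. On replicate 2 at 72 hours the spot was saturated in the sample channel, and without that array the step was 1.19. It was 0.88 with loess and 1.10 with the scanner ratio (limma unadjusted p = 0.0839 and 0.0671). Groups of 3 arrays were too small for a search for single outlying arrays.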

How the results depend on the processing

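Without the 2 low-signal arrays, members past the adjusted limit numbered 2, 6 and 3 at 12, 24 and 72 hours against fed, 0 between 12 and 24 hours and 1 between 24 and 72 hours, and those past the limits of the study's methods 7, 6, 5, 0 and 2, where 7.11%, 10.7%, 3.98%, 0.368% and 5.97% of all probes were. With weights per array these were 8, 7, 6, 1 and 3, and 9, 7, 9, 1 and 3, where 9.53%, 10.5%, 4.11%, 0.9% and 4.26% of all probes passed the adjusted limit and 9.55%, 10.4%, 5.54%, 1.62% and 5.23% the study's. With the day of quantification as a block they were 15, 6, 0, 0 and 9, and 14, 8, 6, 0 and 11, where 22.4%, 11.5%, 0.0199%, 0% and 10.6% of all probes passed the adjusted limit and 21.3%, 15.3%, 1.93%, 0.552% and 14.7% the study's. In that fit the early groups are set against fed through 3 arrays of 1 day, 2 of them of low signal, and the medians were -1.01 and -0.80 for initiation factors at 12 and 24 hours, and -0.63 and -0.33 for elongation factors and synthetases at 24 hours. Within the first day 7 members passed the study's limits at 72 hours, where 3.33% of all probes did. At those limits 0 passed at 12 hours with the scanner ratio or with outlier flags kept, 1 at 24 hours with loess, 0 between 24 and 72 hours with loess or the scanner ratio, and 1 between 12 and 24 hours with the sample channel alone. At 12 hours the 1 member was Cars probe 2 with loess and Eif5a with the sample channel alone, in place of Eef2. For these fits and those that leave out 1 array, shares of all probes are not given here. Their counts can thus not be set against a background. Leaving out 1 array at a time gave 0 to 1 member past those limits at 12 hours (0 without fed replicates 2 or 3, 12-hour replicate 3, 24-hour replicate 2 or any 72-hour array, and Cars in place of Eef2 without 12-hour replicate 1), 0 to 2 at 24 hours (2 without 24-hour replicate 3), 0 to 1 at 72 hours, 0 to 1 between 12 and 24 hours and 1 to 3 between 24 and 72 hours (the upper values without 12-hour replicate 2, at 72 hours also without 72-hour replicate 1), and 0 past the adjusted limit throughout.

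The synthetase median at 12 hours (-0.23 with all arrays) was 0.015 with the sample channel alone, 0.041 with array weights and -0.011 without the low-signal arrays, and the initiation median 0.34 with array weights. With 1 array left out the synthetase median ran from -0.29 (without 12-hour replicate 1) to -0.011 (without 12-hour replicate 2), and the elongation median at 72 hours from 0.37 (without 72-hour replicate 3) to 0.97 (without 72-hour replicate 1). Eef1d at 12 hours turned to 0.21 (loess), 0.17 (scanner ratio), 0.70 (array weights) and 0.62 (without the low-signal arrays), at 24 hours to -0.88 (day block) and at 72 hours to -0.14 (sample channel alone). Eif4a2 at 12 hours turned to 0.54 (array weights) and 0.67 (without the low-signal arrays), and at 24 hours to -1.64 (day block). Eef2 at 12 hours turned to -0.41 (day block). With 1 array left out, Eef1d at 12 hours ran from -0.56 to 0.62, Eif4a2 at 12 hours from -0.99 to 0.67 and at 24 hours from -0.29 to 0.77, each highest without the low-signal array of its group. The cause was not tested.

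The replicate numbers did not pair the samples, since 7 of 18 same-numbered pairs had a correlation of deviations over 0.1, with a range of -0.72 to 0.69 over 8880 probes. With the replicate number as a block, 0 members passed the adjusted limit in any comparison and 1, 0, 0, 0 and 1 the study's limits (Eef2 and Eef1a1), as without it. Within the second day, an alternative chosen after seeing the data, 0 members passed between 12 and 24 hours. Shares of all probes in the replicate-block and second-day fits are not given here either. Signal over background was low on 2 arrays, which limits the early groups.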
